A study of Mus musculus with 60 samples.

Results

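This account covers the genotype comparison in juvenile mouse hippocampus at week 3, restricted to libraries of similar total counts. Of the 10 NLGF libraries of that age, 3 (female 2, female 3 and male 1) had a total under 50000000 counts, like the 10 WT libraries of the same age, and these 13 of the 60 libraries in the series were compared. The other 7 NLGF libraries of week 3 were deeper and held a different mix of RNA, and they were left out. The members were chosen by total counts and short noncoding RNA levels, so those measures are given as description only.

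The study sequenced ribosome-depleted total RNA from bulk hippocampus of male and female mice at weeks 3, 8 and 24, with 5 libraries for each age, sex and genotype. WT mice are wild type, here 5 females and 5 males of week 3. NLGF mice (App NL-G-F, here 2 females and 1 male of week 3) carry an App gene with a humanised amyloid-beta sequence and the Swedish, Beyreuther/Iberian and Arctic mutations, at the mouse locus and under its own promoter. In bulk tissue, fewer cells of a type and less RNA per cell cannot be told apart.

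App encodes the amyloid precursor protein. Beta secretase and then gamma secretase cut the protein to release amyloid-beta, and the 3 mutations raise its amount, its share of the long form and its tendency to aggregate without overexpressing the gene. Plaques in this line come with ageing, and microglia that surround them switch on Trem2, Tyrobp, Cst7, Itgax and Clec7a. The comparison at week 3 asks what differs in the hippocampus of a weanling, at the start of the time course.

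The 3 NLGF libraries held 19469508 to 33958537 counts and the WT libraries 17786578 to 31802957 counts, against 54026870 to 73423252 counts in the 7 that were left out. Bc1, a short neuronal RNA, was at 2.26 to 15.9 CPM (read counts scaled to a common library size) in the 3 NLGF libraries, 4.49 to 60.7 in WT and 1754 to 5689 in the left-out libraries. The hippocampal markers Prox1 and Camk2a were present in every one of the 13 libraries, at 128 CPM or more and at 3910 CPM or more. Sex-linked transcripts matched the label in 13 of 13 libraries. The mean log2 CPM of transcripts over 6000 bases less that of transcripts under 1000 bases was 2.97 to 3.06 in NLGF and 2.77 to 3.19 in WT.

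App itself, at chromosome 16:84949685-85173766 (mm10, GENCODE vM21), did not differ detectably. Its level was 1781, 1566 and 1790 CPM in NLGF female 2, female 3 and male 1, and 1569 to 1886 CPM (median 1732) in WT. The NLGF libraries lay across the WT range. The log2 fold change was 0.00 ± 0.08 (SE, n = 3 and 10; edgeR quasi-likelihood test, adjusted p = 0.999), with a 95% interval of -0.16 to 0.16. An exact permutation test over the 286 splits gave p = 0.983, 2-sided, where the smallest p these groups allow is 0.0035. The fit included sex, while the permutation test took no account of it. The knock-in changes bases inside the gene, so gene counts do not check the label.

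Among 20 genes for App, its paralogs and the proteins that cut or carry it, 1 was higher at an unadjusted p under 0.05 and 0 were lower, with a median log2 fold change of 0.03. Over all genes tested, 5.58% were higher and 5.85% lower at that p. Genes on either side of App on chromosome 16 were mostly at slightly lower values: 15 of 16 had a negative log2 fold change, with a median of -0.11, and 3 of them (Atp5j, Adamts5 and Mrps6) had an unadjusted p under 0.05. That count was 0 without NLGF female 2 and 1 without NLGF female 3.

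Across the transcriptome, 0 of 17187 genes passed an adjusted p of 0.05 in edgeR's quasi-likelihood test (0% called), and the smallest adjusted p was 0.134. Before adjustment, 959 genes were higher (5.58%) and 1006 lower (5.85%) in NLGF at p under 0.05, 11.4% together. DESeq2 on the same 13 libraries called 109 genes, 75 higher and 34 lower, so the count of 0 depends on the tool. The precision was moderate: the median half-width of the 95% interval was 0.30 on the log2 scale, and for 14194 genes (82.6%) the interval excluded a 2-fold change in both directions. No single gene described at week 3 passed adjustment in the edgeR test, so its values are given without a call.

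The genes with the smallest p included several with complete separation of the groups, a pattern seen in 87 genes higher (0.506%) and 48 genes lower (0.279%) in NLGF. Of the 286 ways to split the 13 libraries, 1 gives full separation in a given direction, a share of 0.0035. The observed shares are near it, so lack of overlap in a gene is a description and no test. Sema5a, a transmembrane semaphorin that guides axons, at chromosome 15:32244810-32696341, had 306, 321 and 332 CPM in NLGF and 172 to 296 CPM (median 232) in WT. All 3 NLGF libraries lay above all 10 WT libraries, and the log2 fold change was 0.55 ± 0.09. Ablim3, an actin-binding LIM protein, had 49.7, 54.6 and 67.8 CPM in NLGF against 29.3 to 55.5 (median 39.0) in WT, with 9 WT libraries below all NLGF libraries (0.57 ± 0.10). Both had an adjusted p of 0.134 in edgeR, and both were called by DESeq2, with adjusted p = 2.57e-04 and 1.46e-04.

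Among the other leading higher genes, Camkk1, a kinase that activates calcium/calmodulin-dependent kinases, was at 204, 182 and 200.2 CPM in NLGF and 121 to 187 CPM in WT (log2 fold change 0.45 ± 0.08). Slc8a2, a sodium/calcium exchanger of the plasma membrane, had 727, 611 and 687 CPM against 410 to 625 CPM (0.46 ± 0.09). For both genes 9 WT libraries lay below all NLGF libraries. Ppp1r13b, a p53-binding protein, had 147, 130 and 142 CPM against 93.7 to 125 CPM (0.43 ± 0.09), and its groups did not overlap.

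On the lower side, Htr2c, the serotonin 2C receptor, at chromosome X:146962513-147197277, had 33.7, 29.2 and 25.4 CPM in NLGF and 37.7 to 63.5 CPM (median 49.9) in WT. Every NLGF library was below every WT library, with a log2 fold change of -0.79 ± 0.16. Hist1h4k, one of the near-identical histone H4 genes among which reads can be split, had 6.68, 5.78 and 7.20 CPM against 8.70 to 17.0 CPM (-0.89 ± 0.17), again without overlap. Htr2c is also strongly expressed in choroid plexus, whose listed genes varied widely between libraries (values with the other marker lists). With a joint covariate for markers of blood, ependyma, neighbouring regions and choroid plexus in the fit, the Htr2c value was -0.70. That covariate does not adjust for choroid plexus alone.

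Other lower genes encode mitochondrial proteins. Ndufb10, a complex I subunit, had 33.9, 34.5 and 24.2 CPM in NLGF and 30.0 to 54.5 CPM in WT (log2 fold change -0.56 ± 0.10). Cox17, a copper chaperone for cytochrome oxidase, was at 10.3, 9.06 and 8.34 CPM against 8.66 to 19.9 CPM (-0.66 ± 0.13), and 8 WT libraries lay above all NLGF libraries for each of these 2 genes. Chchd7, a twin-CHCH-domain protein, was below every WT library (-0.51 ± 0.10). Rn7sk, the RNA that holds the elongation factor P-TEFb inactive, had 5752, 4776 and 2893 CPM in NLGF and 3315 to 8849 CPM in WT. It is on the list of short noncoding RNAs that describes the kind of library, together with Bc1 and Rpph1, the RNA of RNase P. Rpph1 was at 2603, 2526 and 1369 CPM in NLGF and 1942 to 4183 CPM in WT. Scaled by total counts, Rn7sk was at 5922.8 to 9555.6 CPM in the left-out libraries and 3445.5 to 9081.8 CPM in WT. Those ranges overlap, so Rn7sk alone did not tell the libraries apart. Within each sex the compared NLGF libraries lay below WT on that scale. The NLGF females were at 5494.4 and 4673.9 CPM against 6905.2 to 9081.8 CPM in WT females. The NLGF male was at 2867.9 CPM against 3445.5 to 6391.7 CPM in WT males. The compared groups were therefore alike in total counts but not in Rn7sk. These levels are a description and are given with no test.

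**Figure D1:**
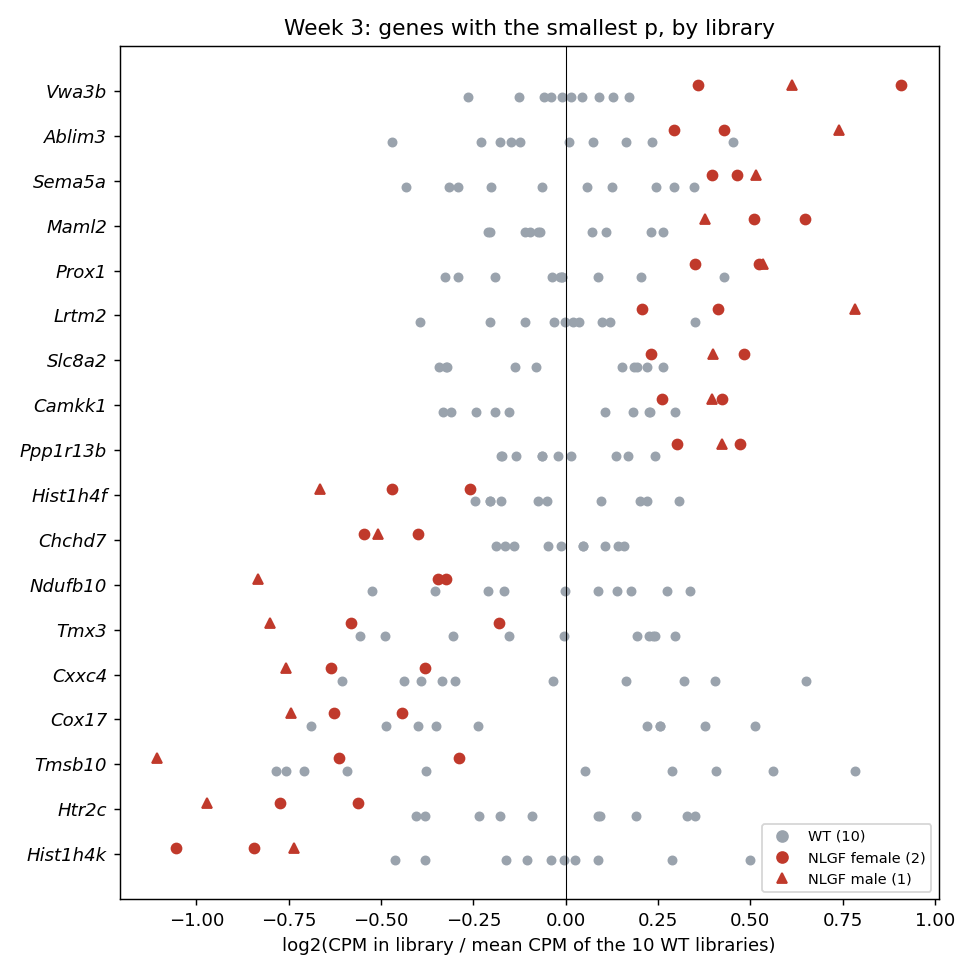
Levels of 18 of the genes with the smallest p at week 3, 9 higher and 9 lower, each point 1 library, as the log2 ratio of its CPM to the mean of the 10 WT libraries (grey, WT; red circles, NLGF females; red triangle, NLGF male). Sema5a, Maml2, Vwa3b and Ppp1r13b lie above all WT points and Hist1h4k, Htr2c, Chchd7 and Hist1h4f below them, while the other 10 overlap.

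The largest folds among well-measured genes were less even across libraries. Ttn, which encodes the giant muscle protein titin, had 26.1, 36.2 and 33.2 CPM in NLGF and 5.72 to 25.8 CPM (median 15.2) in WT, with no overlap and a log2 fold change of 1.18 ± 0.34. Cpne9, a copine, had 19.6, 17.2 and 31.5 CPM against 6.27 to 21.4 CPM (0.99 ± 0.23). Slc27a3, a fatty acid transport family protein, had 12.7, 9.27 and 13.5 CPM in NLGF; WT male 3 was at 13.6 CPM and the other 9 WT libraries were below all NLGF values (0.84 ± 0.19). On the lower side Vat1l, a membrane trafficking protein homolog, was at 23.0, 33.8 and 35.9 CPM against 32.3 to 69.0 CPM (-0.79 ± 0.18).

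Dentate gyrus granule cell genes were higher as a list. These cells form the input layer of the hippocampus and go on being born after birth. Of 12 listed genes, all 12 tested, 11 had a positive log2 fold change, 8 were higher at an unadjusted p under 0.05 and 0 were lower, against 5.58% of all genes higher. The median log2 fold change was 0.39, against -0.01 over all genes tested. Their mean log2 CPM was 5.82, 6.13 and 5.99 in the NLGF libraries and 5.33 to 5.88 in WT, with 8 WT libraries below all NLGF libraries.

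Prox1, the transcription factor that sets granule cell identity, at chromosome 1:190118035-190170714, had 205, 231 and 233 CPM in NLGF and 128 to 216 CPM (median 159) in WT. Its log2 fold change was 0.52 ± 0.10, with 9 WT libraries below all NLGF libraries. Trpc6, a cation channel, was the 1 member without overlap, at 19.3, 20.6 and 20.5 CPM against 13.5 to 17.9 CPM (0.41 ± 0.10). Of all genes, 0.506% lay wholly above WT. Dsp, the desmosome protein desmoplakin, was at 116, 167 and 159 CPM against 55.3 to 187 CPM (0.71 ± 0.23), and C1ql2, a secreted synaptic protein of mossy fibres, at 63.0, 69.7 and 101 CPM against 31.5 to 100.1 CPM (0.61 ± 0.22). Calb1, the calcium buffer calbindin, was the exception, at -0.04 ± 0.14.

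The number of granule cell genes at p under 0.05 was 8 in the fit with sex and 4 without a sex term; without NLGF female 3 it was 5, and in a fit of all 53 libraries of the series other than the 7 deep ones it was 3. In separate libraries of the same design, the list's median log2 fold change was 0.15 at week 8 and 0.29 at week 24. At p under 0.05, 1 member was higher and 0 lower at week 8 (3.17% of all genes higher and 4.66% lower) and 5 were higher and 0 lower at week 24 (4.8% and 4.19%).

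Other neuronal lists leaned the same way at week 3. Of 12 excitatory neuron genes, 6 were higher at p under 0.05 and 0 lower, against 5.58% of all genes higher and 5.85% lower (median log2 fold change 0.17). The 6 became 1 without NLGF female 2, 3 without NLGF female 3, WT female 2 or WT female 5, and 3 with no sex term. Camk2b, a subunit of the main postsynaptic kinase, had 1784, 1621 and 1618 CPM in NLGF and 1134 to 1715 CPM in WT (0.34 ± 0.09). Of 24 synaptic genes, 21 had a positive value, 8 were higher and 1 lower at p under 0.05 (median 0.15). The 8 became 2 without NLGF female 2, 5 without WT female 2 and 5 with no sex term. In the libraries of the later ages the synaptic list had a median of -0.06 at week 8 with 0 higher and 4 lower, and -0.07 at week 24 with 0 higher and 6 lower. Shank3, a postsynaptic scaffold, was at 653, 511 and 691 CPM against 388 to 616 CPM (0.44 ± 0.11), and Homer1 was the lower member (-0.23 ± 0.10). CA field pyramidal genes were split, 3 higher and 1 lower of 14, with Nptx1, a neuronal pentraxin, at 0.50 ± 0.16 and Mpped1 at -0.33 ± 0.12, and without NLGF female 2 the count of 3 was 0.

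GABAergic interneuron genes did not share that lean. Of 14, 0 were higher and 4 lower at p under 0.05 (5.58% and 5.85% of all genes), with a median log2 fold change of -0.05. The 4 became 2 with no sex term. Erbb4, the neuregulin receptor of these cells, had 116, 130 and 93.8 CPM in NLGF and 109 to 162 CPM in WT (-0.31 ± 0.08). Pvalb, the calcium buffer parvalbumin, had 19.8, 23.3 and 19.9 CPM against 20.3 to 33.2 CPM (-0.37 ± 0.13), and Dlx1, a homeobox factor of the lineage, was at -0.50 ± 0.14. For Pvalb and Dlx1, 9 of 10 WT libraries lay above all NLGF libraries.

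Notch signalling was examined because gamma secretase cuts Notch receptors as well as App. Of 24 genes, 6 were higher at p under 0.05 and 0 lower, against 5.58% and 5.85% of all genes (median log2 fold change 0.11). The 6 became 3 without NLGF female 2, WT female 1, WT female 2 or WT female 5, and 3 with no sex term, and the median ranged from 0.03 without NLGF female 2 to 0.20 without NLGF female 3. Maml2, a coactivator that the Notch intracellular domain recruits, at chromosome 9:13297957-13709388, had 44.4, 40.4 and 36.8 CPM in NLGF and 24.5 to 34.0 CPM in WT, without overlap (0.55 ± 0.10). Its paralog Maml3 was at 0.38 ± 0.11, the receptor Notch1 at 0.28 ± 0.12 and Lfng, a glycosyltransferase that tunes Notch receptors, at 0.44 ± 0.15. The median of the Notch list was -0.01 at week 8 and -0.05 at week 24.

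Sterol synthesis genes were lower as a list. Neurons and glia make their own cholesterol, and most enzymes of the route are switched on together by SREBF2, which is released when membrane sterol is low and which usually works with NF-Y, a factor that binds CCAAT. Msmo1, Insig1 and Cyp51 had the smallest p on the list, and Hmgcs1 was another member at p under 0.05. The promoters of these 4 members, which share that control, are shown. They are from RefSeq, GRCm38.p6, 250 bases before to 50 after the start, and capitals mark CCAAT or its reverse complement ATTGG and, in Hmgcs1, the sterol-element pattern TCACNCCAC. Msmo1 is at chr8:64733529-64733828 on the minus strand, Insig1 at chr5:28071162-28071461 on the plus strand, Cyp51 at chr5:4104648-4104947 on the minus strand and Hmgcs1 at chr13:119690101-119690400 on the plus strand.
Msmo1: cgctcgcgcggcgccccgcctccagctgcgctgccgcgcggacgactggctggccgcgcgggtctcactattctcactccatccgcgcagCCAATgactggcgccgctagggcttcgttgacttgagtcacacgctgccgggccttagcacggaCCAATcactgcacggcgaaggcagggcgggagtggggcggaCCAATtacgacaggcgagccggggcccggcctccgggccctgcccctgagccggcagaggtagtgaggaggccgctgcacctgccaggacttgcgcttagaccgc
Insig1: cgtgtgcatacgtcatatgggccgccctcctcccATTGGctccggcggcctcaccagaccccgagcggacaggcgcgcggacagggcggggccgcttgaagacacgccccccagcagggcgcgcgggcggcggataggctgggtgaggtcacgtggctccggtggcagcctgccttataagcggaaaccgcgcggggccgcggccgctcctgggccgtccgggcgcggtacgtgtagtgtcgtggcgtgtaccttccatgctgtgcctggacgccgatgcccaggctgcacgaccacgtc
Cyp51: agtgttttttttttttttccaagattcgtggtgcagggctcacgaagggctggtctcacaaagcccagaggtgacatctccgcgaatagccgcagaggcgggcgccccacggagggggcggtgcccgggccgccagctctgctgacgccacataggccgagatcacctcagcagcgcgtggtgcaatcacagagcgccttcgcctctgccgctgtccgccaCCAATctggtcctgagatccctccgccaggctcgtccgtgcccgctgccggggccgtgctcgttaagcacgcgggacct
Hmgcs1: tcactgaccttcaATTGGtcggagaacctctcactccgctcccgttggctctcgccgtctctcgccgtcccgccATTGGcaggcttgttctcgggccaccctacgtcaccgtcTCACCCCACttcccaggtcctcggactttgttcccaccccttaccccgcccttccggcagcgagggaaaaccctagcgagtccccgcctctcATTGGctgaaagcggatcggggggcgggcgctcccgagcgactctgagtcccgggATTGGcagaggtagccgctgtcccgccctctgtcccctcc
Msmo1 held 3 such CCAAT matches, Insig1 and Cyp51 held 1 each, and Hmgcs1 held 4. Of the 24 sterol genes 17 had a promoter in the table. CCAAT on either strand was in 16 of these 17, all but Acat2, and in 41.1% of 27025 genes. TCACNCCAC on either strand was in Hmgcs1 alone of the 17 and in 1.44% of all genes. These motifs were picked after the expression values were seen and describe letters in the window only.

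Of the 24 sterol genes, all tested, 21 had a negative log2 fold change, 8 were lower at p under 0.05 and 0 higher, against 5.85% of all genes lower, and the median was -0.17. Their mean log2 CPM was 5.55, 5.49 and 5.58 in NLGF and 5.57 to 5.92 in WT, with 9 WT libraries above all NLGF libraries. The highest were WT male 4, female 3 and male 1, at 5.92, 5.84 and 5.83. The same libraries were highest on the oligodendrocyte and myelin list, at 8.17, 8.44 and 8.28. On that list (17 genes, median log2 fold change -0.14) NLGF libraries were at 7.54 to 7.75, with 4 WT libraries above and 4 below them all. A link between the lists was not tested. Msmo1, which starts removal of the C-4 methyl groups of sterols, had 53.2, 55.0 and 38.5 CPM in NLGF and 56.2 to 88.2 CPM in WT. Its groups did not overlap, and the log2 fold change was -0.49 ± 0.12. Fdft1, which makes squalene, was the other member without overlap, at 67.3, 72.0 and 72.0 CPM against 74.5 to 96.6 CPM (-0.22 ± 0.09). Of all genes, 0.279% lay wholly below WT.

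The remaining members at p under 0.05 ran from the start of the route to its control. Hmgcs1, which makes the precursor of mevalonate, had 318, 322 and 337 CPM in NLGF and 323 to 511 CPM in WT (-0.34 ± 0.11). Idi1, which isomerises the isoprenoid unit, was at -0.56 ± 0.17, Sqle, which oxidises squalene, at -0.18 ± 0.08, and Cyp51, which demethylates lanosterol, at -0.38 ± 0.10. Insig1, which keeps SREBF2 in the endoplasmic reticulum when sterols are plentiful, had 55.0, 63.6 and 76.8 CPM against 73.5 to 117 CPM (-0.52 ± 0.14), and Stard4, a sterol carrier, was at -0.35 ± 0.10. Each of these 6 genes had 9 WT libraries above all NLGF libraries. Srebf2 itself was at 0.15 ± 0.10, and the late enzyme Dhcr7 was at -0.01 ± 0.13.

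The sterol list's median was -0.02 at week 8 and 0.07 at week 24 in separate libraries. The granule cell score ran opposite to the sterol score between the groups, higher in NLGF where the sterol score was lower. When the granule cell score was added to the fit, an alternative chosen after seeing the data, the sterol median went from -0.17 to -0.00 and the count at p under 0.05 from 8 lower to 5 lower and 3 higher. In the same fit the excitatory neuron median was 0.30 (3 higher and 1 lower), the synaptic median 0.27 (9 higher and 0 lower) and the Notch median 0.20 (7 higher and 0 lower). With 3 NLGF libraries, that score and genotype are themselves related, so the 2 cannot be told apart here.

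**Figure D2:**
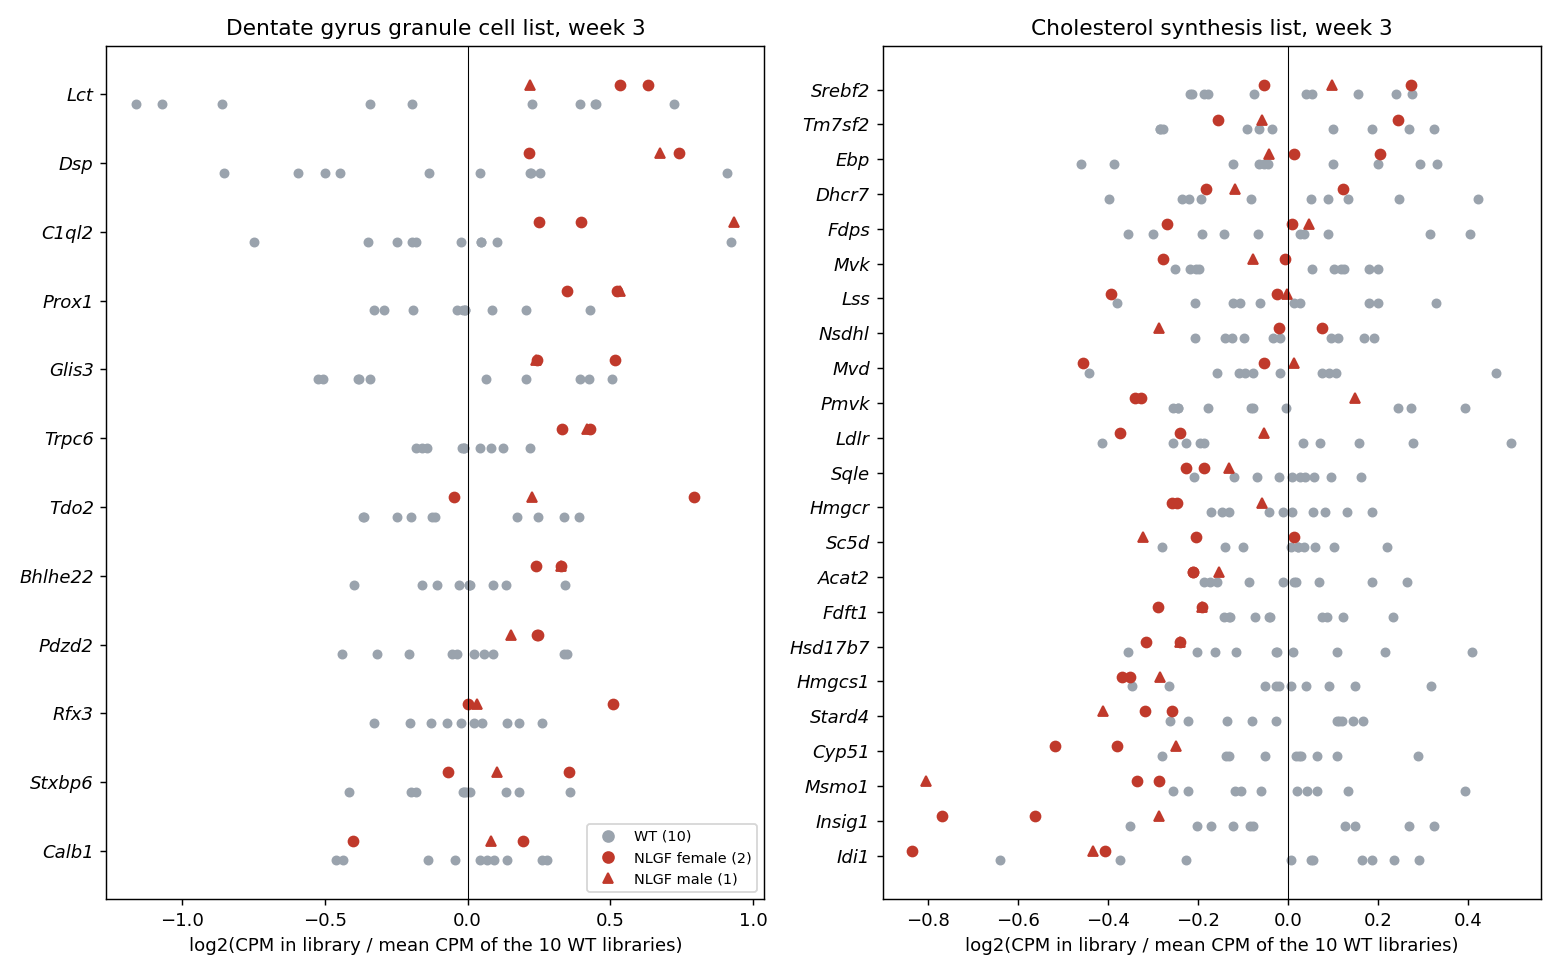
Members of the granule cell list (left, 12 genes) and the sterol synthesis list (right, 23 of its genes) at week 3, each point 1 library, as the log2 ratio of its CPM to the mean of the 10 WT libraries (grey, WT; red circles, NLGF females; red triangle, NLGF male). Of the plotted genes, Trpc6 lies above all WT points and Msmo1 and Fdft1 below them.

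Respiratory chain and ribosomal protein genes were lower in part. Of 34 nuclear subunits of oxidative phosphorylation, 9 were lower and 0 higher at p under 0.05, against 5.85% of all genes lower (median log2 fold change -0.14). The 9 became 3 with no sex term and ranged from 5 without NLGF female 2 to 11 with 1 library left out, and the median was -0.09 without NLGF female 3 and -0.21 without NLGF male 1. Cox7c, a small cytochrome oxidase subunit, was the leading one, at 56.5, 70.4 and 64.0 CPM in NLGF and 68.9 to 130 CPM in WT (-0.76 ± 0.16). Of 30 cytosolic ribosomal proteins, 7 were lower and 0 higher, with a median of -0.02. The 7 became 3 without NLGF female 2 and 4 without NLGF female 3. Rpl38 had 61.2, 64.2 and 45.8 CPM against 55.0 to 85.9 CPM (-0.38 ± 0.09). Many of these genes have processed pseudogenes with near-identical sequence, so their counts are uncertain.

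At p under 0.05, the share of higher genes rose with transcript length, and that of lower genes was largest among the shortest. Medians of the bins from 2 kb up ran from -0.01 to 0.02. In every bin the range from the 25th to the 75th percentile held 0. Among protein-coding genes under 1 kb (521 genes), 10.6% were lower and 0.77% higher at p under 0.05, with a median log2 fold change of -0.09. Over 6 kb (2169 genes), 12.1% were higher and 5.35% lower, with a median of 0.02. With each library's length trend in the fit, the medians were -0.10 for oxidative phosphorylation (8 lower and 3 higher at p under 0.05), -0.01 for ribosomal proteins (8 lower and 7 higher), 0.03 for histone genes (4 lower and 0 higher) and 0.16 for synaptic genes (1 lower and 10 higher). With the granule cell score in the fit instead, the medians were 0.01 for oxidative phosphorylation (3 lower and 5 higher), 0.04 for ribosomal proteins (4 lower and 7 higher) and 0.35 for histone genes (2 lower and 0 higher), so all 3 medians were above 0 in that fit. At weeks 8 and 24 the median of the shortest bin was 0.04 and 0.02.

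**Figure D3:**
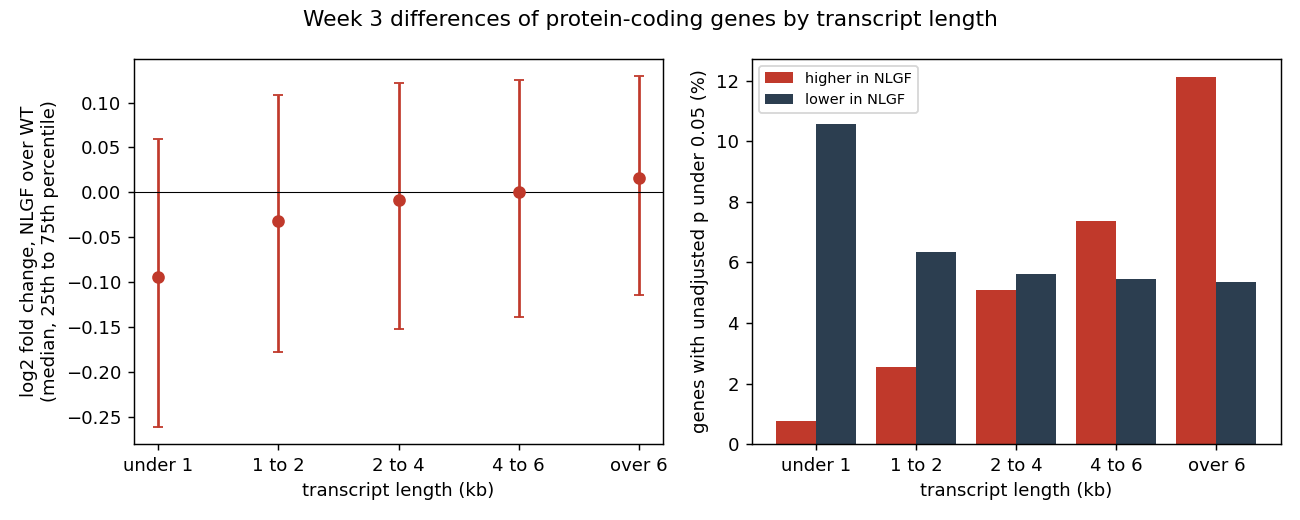
Log2 fold changes at week 3 by transcript length for protein-coding genes in 5 bins (left, median with the 25th to 75th percentile), and the percentage of genes in each bin with an unadjusted p under 0.05 (right; red, higher in NLGF; dark blue, lower). The share of higher genes goes from 0.77% in the shortest bin to 12.1% in the longest, and that of lower genes from 10.6% to 5.35%.

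Plaque-associated microglial genes were near WT levels at week 3. Of 28 listed genes 26 were tested, 3 were higher and 0 lower at p under 0.05, and the median log2 fold change was -0.01. Over all genes tested, 5.58% were higher and 5.85% lower at that p. The 3 became 0 without NLGF female 2 or NLGF female 3, and 1 without WT female 1, WT female 2 or WT male 1 and with no sex term. At week 24, in other libraries, the list's median was 0.63 and 17 genes were called, where 0.878% of all genes were called. Tyrobp, the adaptor that carries the Trem2 signal, had 6.15, 7.43 and 8.19 CPM in the NLGF libraries of week 3 and 5.80 to 8.22 CPM in WT. Its log2 fold change was 0.09 ± 0.14 at week 3 and 1.16 at week 24.

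Trem2, the microglial lipid receptor, was 1 of the 3 higher members at week 3, at 6.31, 6.11 and 8.39 CPM against 4.09 to 7.18 CPM (0.31 ± 0.14). The others were Gpnmb, a glycoprotein of phagocytes (0.47 ± 0.22), and Ank, a pyrophosphate transporter (0.21 ± 0.09). Itgax, the integrin CD11c, was near the detection limit with 0.70, 0.12 and 0.26 CPM against 0.04 to 0.54 CPM, and its 95% interval ran from -1.04 to 1.36. Cst7, a cystatin, and Clec7a, a beta-glucan receptor, were below the count filter. Cst7 had 1, 9 and 2 counts in the 3 NLGF libraries and 0 to 7 in the WT libraries, and Clec7a had 2, 1 and 3 counts against 0 to 16. At week 24 the NLGF libraries held 144 to 238 counts of Cst7 and 66 to 149 of Clec7a.

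The difference between ages was tested directly over those 53 libraries. The genotype effect was larger at week 24 than at week 3 for 15 genes (0.0799% of 18779) and smaller for 0; at an unadjusted p under 0.05 either way, 11.7% of genes differed. All 15 are genes expressed in microglia or other myeloid cells. Mpeg1, a pore-forming protein of phagocytes, had a difference of 1.21 ± 0.13 (edgeR, adjusted p = 4.27e-08), Ccl6, a chemokine, 2.71 ± 0.33 and Itgax 3.73 ± 0.51. For Tyrobp the difference was 1.07 ± 0.15 (edgeR, adjusted p = 3.91e-05) and for Trem2 0.87 ± 0.17. Cst7, at 4.22 ± 0.74, and Clec7a, at 4.98 ± 0.79, rest on the low counts above and are no bounds. The count was 8 without NLGF female 2 and 26 without NLGF male 1, sharing 8 and 12 of the 15 genes.

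Of the 132 genes called higher at week 24, 123 were tested at week 3. There, 72 had a positive and 51 a negative value, and the median log2 fold change was 0.04 against 0.59 at week 24. At p under 0.05, 8 were higher and 0 lower at week 3, against 5.58% and 5.85% of all genes. For 94 of the 123, the 95% interval at week 3 lay wholly below the week 24 value. That value was taken without its error, for genes chosen because it was called. The 94 are therefore no count of genes that differ between the ages, and the direct test called 15. The effect at week 8 did not differ from that at week 3 for any gene in edgeR's test after adjustment (0 of 18779), and 11.5% had an unadjusted p under 0.05.

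**Figure D4:**
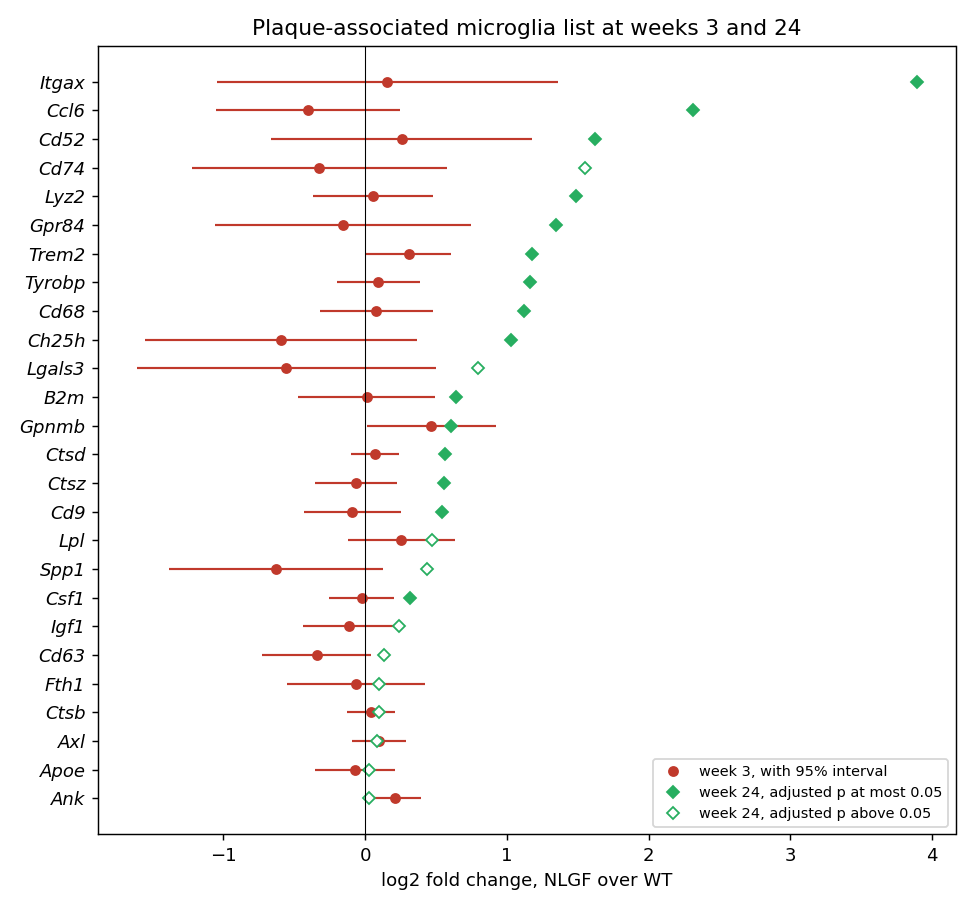
Log2 fold changes of the 26 tested plaque-associated microglia genes at week 3 (red, with the 95% interval) and week 24 (green; filled where the adjusted p is at most 0.05). The week 24 value of Tyrobp, 1.16, lies beyond its week 3 interval, and that of Gpnmb lies inside.

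Other immune lists were counted in the same way, where 5.58% of all genes were higher and 5.85% lower at p under 0.05. Interferon response genes were mostly lower in value, 19 of 20 with a median of -0.35, but 1 had p under 0.05: Rsad2, an antiviral enzyme, at 0.86, 2.41 and 1.71 CPM in NLGF and 1.64 to 5.57 CPM in WT (-0.72 ± 0.33). Its highest WT value, in WT female 5, stood alone. The interferon median was -0.15 without NLGF female 2, -0.21 without WT female 5 and -0.63 without NLGF male 1, and the count of lower members went from 1 to 6 without NLGF male 1, to 5 without WT female 3, to 2 without WT female 2 or WT female 4, and to 0 without NLGF female 2 or without WT female 1, WT female 5 or WT male 4. Of 18 antigen presentation genes, 0 were higher and 0 lower at p under 0.05 (median -0.15); that median was -0.09 without NLGF female 2, -0.46 without NLGF male 1 and 0.03 without WT female 5. Among 20 homeostatic microglia genes 3 were higher, including Csf1r, the receptor that microglia need to survive (0.22 ± 0.07). Another of the 3 is Trem2, which is on the plaque-associated list as well and was counted there too. The 3 became 1 without NLGF female 2, without NLGF female 3 or with no sex term. Among 16 complement genes 1 was lower, Cd59a.

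Of 19 reactive astrocyte genes tested, 1 was higher and 1 lower at p under 0.05, against 5.58% and 5.85% of all genes. Serpina3n, a secreted protease inhibitor that astrocytes raise in injury, had 43.3, 45.8 and 42.0 CPM in NLGF and 20.8 to 41.6 CPM in WT, without overlap (0.51 ± 0.19). Its log2 fold change was 0.33 at week 8 and 0.31 at week 24. Gfap, the astrocyte filament, had 340.2, 378 and 456 CPM against 241 to 491 CPM (0.09 ± 0.14). At week 24 its value was 0.86.

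Markers of tissue beside the hippocampus differed between libraries. The 12 choroid plexus genes summed to 581, 1565 and 1149 CPM in the 3 NLGF libraries and 234 to 6402 CPM in WT; all 12 were lower in value (median log2 fold change -0.40) and 0 had p under 0.05. The direction of that median rests on single libraries: it was 0.15 without NLGF male 1, -0.18 without NLGF female 2, -1.30 without NLGF female 3 (5 lower at p under 0.05), -0.22 without WT female 1, -0.24 without WT female 2, -0.65 without WT female 4 and -1.06 with no sex term. Ttr, the defining choroid transcript, was at 248, 830 and 695 CPM in NLGF. Among WT libraries the 5 males, at 2955 to 6402 CPM summed, lay above the 5 females, at 234 to 1613, and NLGF male 1 lay below all WT males. Of 9 blood genes tested all were lower in value and 2 had p under 0.05 (0 without NLGF female 2), against 5.85% of all genes lower. Their sums were 398 to 534 CPM in NLGF and 405 to 771 CPM in WT. Genes of neighbouring brain regions summed to 285 to 610 CPM against 259 to 462 CPM. With the joint covariate for markers of blood, ependyma, neighbouring regions and choroid plexus in the fit, the granule cell median was 0.38. The sterol median was -0.14 in that fit.

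**Figure D5:**
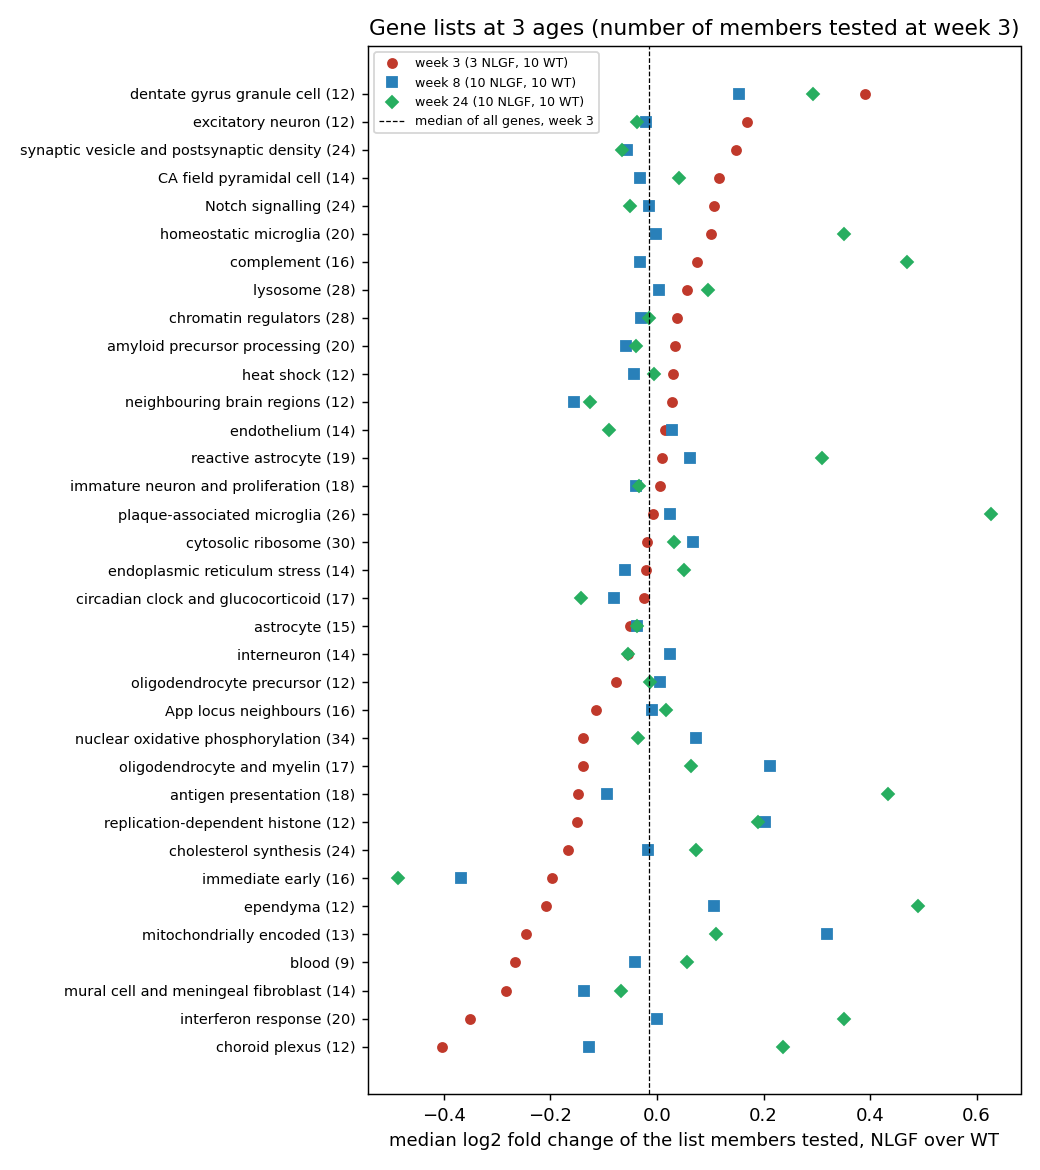
Median log2 fold change, NLGF over WT, of the tested members of 35 gene lists at week 3 (red circles), week 8 (blue squares) and week 24 (green diamonds), with the median of all genes at week 3 as a dashed line. At week 3 the medians run from 0.39 for granule cell genes to -0.40 for choroid plexus genes, the latter from -1.30 to 0.15 with 1 library left out, and the plaque-associated microglia list goes from -0.01 at week 3 to 0.63 at week 24.

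Libraries of the other ages gave a separate reading of direction. Of genes higher at p under 0.05 at week 3, 51.1% were also higher at week 8 and 48.4% at week 24; of those lower, 51.9% and 49.8% were also lower. Over all genes with a positive value at week 3 the shares were 48.9% and 47.3%, and over those with a negative value 52.6% and 48.2%. Of the 87 genes with all NLGF above all WT libraries, 61.6% of the 86 with a value were higher at week 8 and 69.4% of 85 at week 24, of which 6 and 4 had p under 0.05. Of the 48 genes with all NLGF below all WT libraries, 44 had a value at each age, and 52.3% were lower at week 8 and 43.2% at week 24, of which 2 and 1 had p under 0.05. The median log2 fold change at weeks 8 and 24 was 0.03 and 0.03 for the higher genes and -0.01 and 0.03 for the lower genes. Sema5a, picked from the 87 higher genes for its small p at week 3, was at 0.26 and 0.37. It is 1 gene and does not stand for the set.

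Several further lists were counted at p under 0.05, where 5.58% of all genes were higher and 5.85% lower. Of 12 replication-dependent histone genes, whose transcripts lack a poly(A) tail, 4 were lower and 0 higher (median -0.15; 0.00 without NLGF female 3, and 2 lower without NLGF female 3 and 1 without NLGF male 1), with Hist2h4 at 8.91 to 14.6 CPM in NLGF and 12.7 to 21.9 CPM in WT (-0.60 ± 0.16). Of 28 chromatin regulators 3 were higher and 0 lower: the acetyltransferases Kat2a (0.29 ± 0.10) and Crebbp (0.24 ± 0.09) and the methyltransferase Kmt2d (0.27 ± 0.10). That count was 0 without NLGF female 2 and 6 without NLGF male 1. Of 12 chaperone genes 1 was higher, Hspa1b (0.56 ± 0.23), and 1 lower, the mitochondrial Hspe1 (-0.71 ± 0.18).

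Of 16 immediate early genes, which neurons switch on when active, 13 had a negative value at week 3 (median -0.20). At p under 0.05, 1 member was lower, against 5.85% of all genes. That gene was Egr2, a zinc finger factor, at 2.34, 3.04 and 3.26 CPM in NLGF and 3.08 to 8.02 CPM in WT. Its log2 fold change was -0.80 ± 0.32 at week 3, -0.70 ± 0.55 at week 8 and -0.80 ± 0.42 at week 24, and at the later ages its p was 0.221 and 0.0737 before adjustment in edgeR. The list's median was -0.37 at week 8 and -0.49 at week 24.

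The deeper libraries gave other values against the same WT libraries. Htr2c was at 0.75 there and -0.79 here, Hist1h4k at 0.45 and -0.89, and the mitochondrial transcript ND6 at 1.65 and -0.61. Insig1 was at -0.40 and -0.52, and Cox7c at -0.76 in both. The authors' deposited table lists 2628 genes for NLGF against WT at week 3, with a log2 fold change of 1.10 for ND6, -0.33 for Insig1 and -0.74 for Cox7c. Which week 3 libraries it used is not stated in the sources used here, and its Bc1 value is 6.38. Its number of genes is therefore not the same comparison as the 0 called here. The comparisons of the deeper and of the matched libraries share WT libraries, and the deposited one may. All these values are set side by side and do not support one another.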

How the data were processed

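Bulk hippocampal RNA was measured by ribosome-depleted RNA-seq. The authors deposited raw read counts per gene (35976 genes, 60 libraries), and STAR, edgeR, DESeq2 and mm10 are named per the submitters' processing notes. How reads were assigned to genes, and whether by strand, is not given in the sources used here. The authors' deposited table of comparisons gives a base mean signal, a log2 fold change with its error, and p-values and adjusted p-values; its adjusted p reaches 0.06.

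The 3 NLGF and 10 WT libraries of week 3 were compared with edgeR 4.0.16 (R 4.3.3): genes passing filterByExpr with a minimum count of 10, TMM scaling, a robust quasi-likelihood test with sex and genotype, 2-sided, and Benjamini-Hochberg adjustment over 17187 genes, called at 0.05. CPM are per TMM-scaled library. SE is the log2 fold change over the root of F. The difference between ages was fitted on 53 libraries with sex within age. Transcript lengths and positions are from GENCODE vM21. The series design text treats males and females as biological replicates. Libraries of a group differed by more than counting noise (chi-square per degree of freedom 13.6 to 71.2). Alternatives used other scalings, filters, covariates, DESeq2 1.42.0, limma 3.58.1 voom, sva 3.50.0 and 1 library left out at a time. The tests were tested on simulated data.

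The members, the 36 gene lists and the rules were chosen with earlier results of these data known. Named genes were App; 10 genes per direction by smallest p (mean of at least 1 CPM); 5 per direction by largest fold (mean of at least 5 CPM, p under 0.05); up to 3 members of each list with p under 0.05; and 9 genes called at week 24. Further list members named by role, and Mpeg1, were chosen after their values were seen. Genes called only in an alternative fit are given by count. A few named items are not reported here.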

Additional observations from a re-analysis of the deposited data

Results flagged for a closer look

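In 15 genes the genotype effect differed between week 24 and week 3 in edgeR's test of that difference over 53 libraries. On the log2 scale the difference was 4.98 for Clec7a, 4.22 for Cst7, 3.73 for Itgax, 2.71 for Ccl6, 1.43 for Lyz2, 1.22 for Ptprc, 1.21 for Mpeg1, 1.18 for Cd180, 1.07 for Tyrobp and 1.04 for Cd68. Clec7a and Cst7 were below the count filter at week 3 and Itgax was near the detection limit there. The sizes of these differences rest on low counts and are no bounds. The difference was 0.87 for Trem2, 0.82 for Irf8, 0.81 for Ctss, 0.74 for Dock2 and 0.53 for C1qb. The week 3 value of the 15 genes ranged from -0.40 for Ccl6 to 0.31 for Trem2 among the 13 that passed the filter at that age.

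In 6 of the 100 named genes, 1 WT library stood apart from the other 9, with a gap to the nearest library that was a large share of the whole WT range (above the 95% critical value of the Dixon test; chance alone gives about 1 in 20 such groups). Slc27a3 was at 13.6 CPM in WT male 3 with the next at 8.00 (share 0.658). Rsad2 was at 5.57 CPM in WT female 5 with the next at 3.17 (0.611), and Ly6c1 in the same library was at 32.1 CPM with the next at 19.4 (0.61). Ermn was at 105 CPM in WT female 3 with the next at 65.7 (0.518), and Lfng at 25.4 CPM in WT male 1 with the next at 18.6 (0.575). Crebbp was low in WT male 5, at 218 CPM with the next at 263 (0.486).

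The 7 left-out NLGF libraries of week 3 held short noncoding RNAs at levels not seen in the 13 compared. Their lowest values were 1754 CPM for Bc1, 5.38 CPM for Rny1 and 2.85 CPM for Rny3, against highest WT values of 60.7, 1.64 and 0.40 CPM. The compared NLGF libraries were at 0.31 to 1.17 CPM for Rny1 and 0 to 0.67 CPM for Rny3. Their medians were 0.94 and 0.38 CPM, against 0.19 and 0.17 CPM in WT.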

How the results depend on the processing

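The count of genes called at week 3, 0 in the edgeR fit, was 109 with DESeq2, 72 with females only, 69 with a covariate for the length trend and 4 with no filter on low counts; it was 0 to 2 when 1 library was left out, with 2 without WT male 3. It stayed 0 with RLE or upper quartile scaling, the CPM filter, no sex term, the marker or granule cell covariates, 1 surrogate variable, the 20-library and 53-library fits and voom. The counts of genes higher at an unadjusted p under 0.05 and of genes lower at an unadjusted p under 0.05 (959 and 1006) were 584 and 500 with no sex term, 1900 and 1692 with the length covariate, 1716 and 1565 with the granule cell covariate, which was added after seeing the data, and ranged from 349 (without NLGF female 2) to 1081 and from 338 (without NLGF female 2) to 1302 with 1 library left out. The cause of these shifts was not tested.

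The replicate numbers do not pair the samples: same-numbered NLGF and WT libraries had correlations of deviations of -0.21, -0.17 and -0.08. With the replicate block, 1 gene was called (Dlk1, -1.35), with 341 higher and 459 lower at p under 0.05, App at week 3 was at -0.039, Cd52 at -0.084 and Gfap at -0.037.

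App at week 3 changed sign around 0: it was -0.0049 with upper quartile scaling, -0.0047 with the CPM filter, -0.00022 with no sex term, -0.046 with females only, -0.0012 in the 20-library fit and -0.018 with voom, and -0.042 to 0.061 with 1 library left out. Among week 24 genes near 0 at week 3, Lyz2 was at -0.0073 with no sex term and -0.14 with females only, Tyrobp at -0.026 with females only, Gfap at -0.13 with the granule cell covariate, and Itgax at -0.064 with the marker covariate and -0.29 with voom. With 1 library left out, Lyz2 ranged from -0.13 to 0.198, Tyrobp from -0.021 to 0.199, Cd52 from -0.19 to 0.65 and Itgax from -0.68 to 0.67.

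The 15 genes whose effect was larger at week 24 than at week 3 were 13 with RLE scaling and 27 with the CPM filter, and 8 to 26 with 1 library left out. The week 8 comparison called 0, and 0 to 1 with 1 library left out. With 3 NLGF libraries, 1 of them male, no sex difference of the genotype effect was tested.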
